A study of Rattus norvegicus with 12 samples.

Results

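The nuclear genes of the mitochondrial respiratory chain were examined on the 12 arrays of rat mixed glia. The family was taken by symbol: a probe set belonged to it if the array annotation gave it 1 gene symbol that starts with Nduf, Uqcr, Atp5, Cox4, Cox5, Cox6, Cox7 or Cox8, or is Cyc1 or Cycs. This selected 100 of 8740 probe sets, for 54 of 4736 genes: 27 of complex I, 4 of complex III, 13 of complex IV and 10 of complex V. A gene with several probe sets was represented by the brightest one, and levels are dChip signals, which are linear intensities in arbitrary units. The cultures were mixed glia from neonatal rat brain (astrocytes, oligodendrocytes and microglia), kept in defined medium with 2 percent serum and then given 1 of 3 cytokine mixtures for 6 hours, each cytokine at 10 ng/ml. IL-2, IFN-g, TNF-a and G-CSF made up the Th1 mixture. The M/M mixture, for monocytes and macrophages, held IL1a, IL1b, IL-12p40 and TNF-a, and the Th2 mixture held TGF-b1 of porcine origin with G-CSF, IL-10 and IL-5. The methods add IL-6 to the M/M mixture and IL-4 to the Th2 mixture, which the sample labels do not list. Control cultures received medium alone. There were 3 separate experiments with 1 culture of each kind, numbered here 1 to 3, which gives 3 arrays per group, and this number limits the precision.

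Oxidative phosphorylation takes place at the inner mitochondrial membrane. Complexes I, III and IV pass electrons to oxygen and pump protons, and complex V, the ATP synthase, uses the proton gradient to make ATP. Most of the symbols belong to nuclear subunits: Nduf to complex I (NADH dehydrogenase), Uqcr and Cyc1 to complex III, Cox to complex IV (cytochrome c oxidase) and Atp5 to complex V. A few subunits of these complexes are encoded by mitochondrial DNA. Sets were formed by symbol alone, so that complex I here includes Ndufaf3, an assembly factor, and Ndufa4, now known as a complex IV subunit. Complex IV includes the pseudogene Cox6c-ps1, and complex V the inhibitor Atp5if1. Some cytochrome c oxidase subunits have alternative isoforms, of which Cox6a2 and Cox8b are those of heart and skeletal muscle and Cox4i2 is best known from lung. In glia, cytokines are known to shift the balance of glycolysis and respiration.

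No member of the family passed the test with any mixture. With limma, fitted over all 8740 probe sets with the experiment as a replicate block, 0 of the 100 member probe sets had an adjusted p under 0.05 for Th1, M/M or Th2 cytokines against control. Few calls were made anywhere on the array: 0 percent of all probe sets for the Th1 group, 0.263 percent (23 probe sets) for the M/M group and 0.0114 percent (1 probe set) for the Th2 group. At an unadjusted p under 0.05 there were 2 member probe sets in the Th1, 17 in the M/M and 0 in the Th2 comparison, that is 2.00, 17.0 and 0 percent of the members, compared with 5.56, 15.9 and 6.75 percent of all probe sets. All 17 of the M/M group were higher than control before centring, and after it 1 of them, for Ndufab1, was lower (log2 −0.07). With centred arrays 4, 15 and 6 member probe sets had an unadjusted p under 0.05 (Th1, M/M, Th2), against 6.70, 13.4 and 7.80 percent of all probe sets. After centring no probe set on the array was called, whether a member or not. The smallest adjusted p of a member was 0.125, for a dimmer probe set of Ndufa6 with M/M cytokines. The study's methods screened on a change above 2-fold together with p under 0.2 by analysis of variance. By that rule 0 member probe sets passed in the Th1 group, 1 in the M/M group and 0 in the Th2 group, whereas 2.77, 6.82 and 3.42 percent of all probe sets passed.

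Changes of the family were small as well as uncalled. At its brightest probe set, none of the 54 genes differed by more than 2-fold in the mean of the 3 experiments with any mixture. Of all probe sets, which include many dim ones, 7.96, 12.9 and 8.41 percent did (Th1, M/M, Th2). Dimmer probe sets of the family also passed 2-fold, such as those of Ndufa6 and Ndufa4l2 with M/M cytokines (log2 1.24 and 1.38). The 95 percent interval of the change lay within 2-fold in either direction for 49, 46 and 50 of the 54 genes, or 90.7, 85.2 and 92.6 percent, in the same order. Among all probe sets this held for 39.4, 31.3 and 37.5 percent, but among the brightest 10 percent of probe sets for 92.3, 82.8 and 93.4 percent, close to the family. The median SE of a gene's log2 change was 0.22, and changes of about that size were not detectable with this number of arrays.

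**Figure D1:**
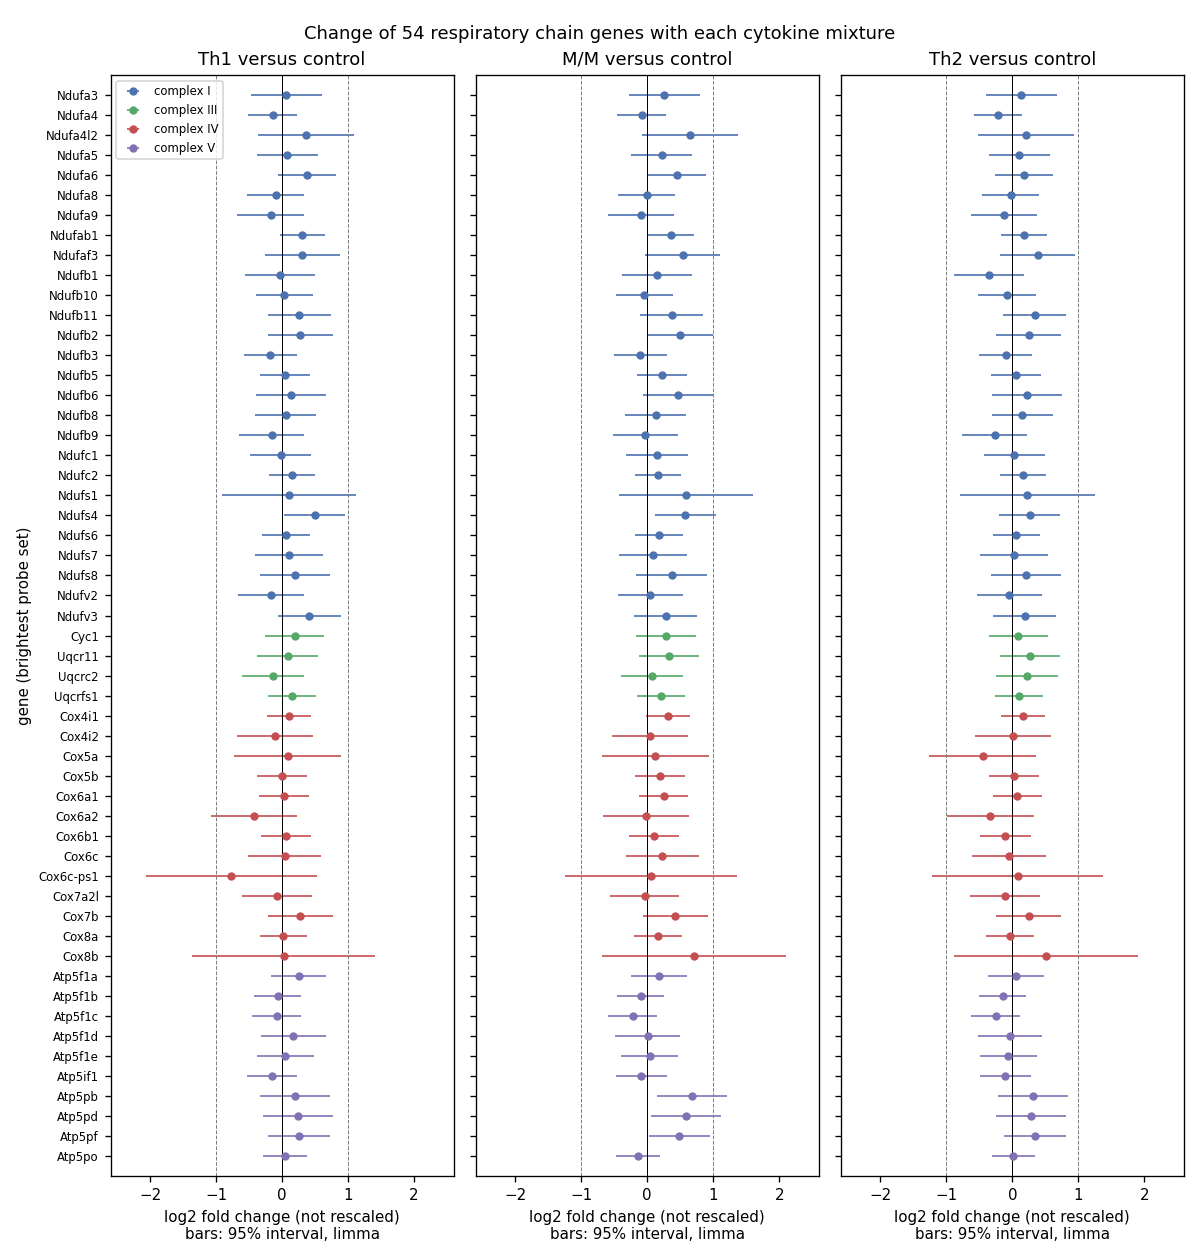
Log2 fold change of each of the 54 genes against control (horizontal axis, signals not rescaled) for Th1, M/M and Th2 cytokines, with 95 percent intervals from limma, coloured by complex; dashed lines mark 2-fold. All points lie within the dashed lines, and the widest intervals belong to dim genes such as Cox8b and Cox6c-ps1.

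Most of the family was among the brightest probe sets of these cultures. The median member gene stood at percentile 93.5 of the control signal, 42 of 54 were in the top 10 percent of the array and 3 were below its median. The brightest were Cox8a (percentile 99.3), Cox4i1 (99.2) and Cox6a1 (98.9), which encode the isoforms of cytochrome c oxidase subunits found in most tissues, and Atp5f1b (98.7), for the catalytic β subunit of ATP synthase. At the other end were Cox6c-ps1 (26.4), annotated as a pseudogene, Cox8b (31.1), Ndufs1 (47.8), for an iron-sulphur subunit of complex I, and Ndufa4l2 (53.4). Probe sets differ in how well they bind, and these percentiles describe brightness and are not amounts of RNA. The 3 measured mitochondrially encoded subunits of complex IV, COX1, COX2 and COX3, stood at percentiles 99.8, 97.8 and 99.4.

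The promoters of 45 of the 54 genes could be matched to RefSeq (GRCr8), as 300 bases from 250 before to 50 after the gene's start, and were searched on both strands for strings bound by known transcription factors. The string AAGATGGC, the core of the YY1 site, was present in 11 of 45 promoters of the family (24.4 percent), against 3.44 percent of 27457 promoters of all genes. CCGGAAG, read by ETS factors such as GABPA (also called NRF2), was in 9 (20 percent, against 9.22 percent), and GCATGCGC, the core of the NRF1 site, in 2 (4.44 percent, against 2.66 percent). At least 1 of the 3 strings was found in 17 promoters, or 37.8 percent, against 14.1 percent. GGGCGG, the Sp1 core, was in 44.4 percent, against 34.9 percent, and CCAAT in 35.6 percent, against 37.7 percent. GGGACTTTC, a κB sequence, was in 1, that of Cox6a2 (2.22 percent, against 0.328 percent). Strings were counted separately, with overlaps kept, and a match is a description of the letters, not a site shown to be bound.

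Some promoters, picked by hand, are given 5′ to 3′ on the strand of the gene, with the YY1, ETS and NRF1 strings on either strand in capitals. Most of those printed hold such a string, against 17 of 45 in the family. Cox4i1 and Cox8a are the brightest genes and have ETS strings, and Cox8a has a YY1 string as well. Cox8b, the dim muscle counterpart of Cox8a, has none of these strings. Brightness and strings did not go together throughout: the bright Atp5f1b (percentile 98.7) also has none. Among the dim genes, Ndufs1 (47.8) has an ETS string and Ndufa4l2 (53.4) a YY1 string. Atp5po, for a peripheral stalk subunit of ATP synthase, has an NRF1 string that reads on both strands and a YY1 string, and Ndufs4, which had the highest Th1 change among the 54 genes, has a YY1 string.
Cox4i1, chr19:65630133-65630432 (plus strand): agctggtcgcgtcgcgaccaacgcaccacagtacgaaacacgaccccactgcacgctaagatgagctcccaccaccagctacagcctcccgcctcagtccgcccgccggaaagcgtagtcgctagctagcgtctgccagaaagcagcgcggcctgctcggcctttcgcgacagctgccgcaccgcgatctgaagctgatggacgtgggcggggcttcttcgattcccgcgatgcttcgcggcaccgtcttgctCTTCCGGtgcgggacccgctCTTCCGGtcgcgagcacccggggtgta
Cox8a, chr1:213833574-213833873 (minus strand): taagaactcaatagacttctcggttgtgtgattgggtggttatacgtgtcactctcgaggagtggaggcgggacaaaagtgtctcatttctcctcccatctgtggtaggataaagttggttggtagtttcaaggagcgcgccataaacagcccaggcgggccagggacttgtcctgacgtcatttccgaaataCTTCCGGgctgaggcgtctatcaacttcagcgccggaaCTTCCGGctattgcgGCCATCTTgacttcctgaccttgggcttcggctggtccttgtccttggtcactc
Cox8b, chr1:205408224-205408523 (minus strand): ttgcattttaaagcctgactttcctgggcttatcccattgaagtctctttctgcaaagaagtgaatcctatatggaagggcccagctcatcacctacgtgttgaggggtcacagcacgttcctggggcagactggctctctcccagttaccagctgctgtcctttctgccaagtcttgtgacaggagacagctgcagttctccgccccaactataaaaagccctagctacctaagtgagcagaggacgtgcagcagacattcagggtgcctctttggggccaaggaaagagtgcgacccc
Atp5po, chr11:44657434-44657733 (minus strand): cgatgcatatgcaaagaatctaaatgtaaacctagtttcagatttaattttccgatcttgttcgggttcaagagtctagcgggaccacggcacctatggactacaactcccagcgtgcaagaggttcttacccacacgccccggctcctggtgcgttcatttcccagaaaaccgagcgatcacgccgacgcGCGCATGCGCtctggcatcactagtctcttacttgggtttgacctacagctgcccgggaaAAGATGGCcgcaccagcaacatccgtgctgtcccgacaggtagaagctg
Ndufs4, chr2:47794865-47795164 (minus strand): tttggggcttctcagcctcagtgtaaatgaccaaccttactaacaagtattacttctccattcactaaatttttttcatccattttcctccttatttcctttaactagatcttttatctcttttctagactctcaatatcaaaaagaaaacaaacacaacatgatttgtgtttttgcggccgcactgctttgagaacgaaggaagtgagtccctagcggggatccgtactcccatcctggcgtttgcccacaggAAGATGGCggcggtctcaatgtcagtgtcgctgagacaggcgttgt

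Experiments differed more than cytokines in the level of these genes. The spread between the 3 experiment means was larger than that between the 4 group means for 47 of 54 genes, 87.0 percent, against 81.1 percent of all probe sets, with a median SD of 0.443 between experiments and 0.116 between groups on the log2 scale. The median signal of the family was 1072, 1010.0 and 523 on the Th1 arrays of experiments 1, 2 and 3, 1001, 921 and 752 on the M/M arrays, 1043, 854 and 598 on the Th2 arrays and 1095, 828 and 531 on the control arrays. Experiment 3 was lowest in every group, and the control of experiment 3 was the lowest control for 47 of 54 genes, for 82 of the 100 member probe sets and for 5229 of all 8740. The median array signal over all probe sets was also lowest there, and over the 12 arrays it ran from 24.5 to 61. Arrays were not rescaled in the main fit, and the values below are also given after each array was centred on its median.

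With M/M cytokines the family was slightly higher than control before arrays were centred and slightly lower after it. The median log2 change over the 54 genes was 0.18, with 42 genes above and 12 below control, against a median of 0.33 over all probe sets and 0.28 over the brightest 10 percent. After centring, the median was −0.24, with 11 above and 43 below, against −0.10 over all probe sets and −0.15 over the brightest 10 percent. Its direction was therefore set by the scaling, and also by experiment. The 3 experiments had medians of −0.12, 0.07 and 0.65 before centring and of −0.16, −0.52 and 0.00 after it. Without experiment 3 the uncentred median was −0.01, and without experiment 2 the centred one was −0.08.

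Th1 and Th2 cytokines gave medians closer to 0. For Th1 cytokines the median was 0.06 (37 genes above and 17 below control) against 0.14 over all probe sets, and after centring −0.10 (16 above and 38 below) against −0.02. By experiment it was −0.04, 0.20 and 0.00 before centring, and without experiment 2 the centred median was 0.09. For Th2 cytokines the median was 0.07 (35 above and 19 below) against 0.19 over all probe sets, and after centring −0.14 (14 above and 40 below) against −0.03. By experiment it was −0.08, 0.08 and 0.26, and without experiment 3 it was 0.03. The centred values rest on experiment 2 in both, with medians of −0.47 for Th1 and −0.46 for Th2 cytokines there, and without it the centred Th2 median was 0.01. All 3 mixtures share the same control arrays. In the control array of experiment 2 the family stood 4.43 log2 units above the array median, the widest gap among the 12 arrays, where the narrowest was 3.93. The median signal of all probe sets was 38.4 in that control and 61, 57.9 and 56.1 on the Th1, M/M and Th2 arrays of the experiment, and the part of this in the centred values was not tested.

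**Figure D2:**
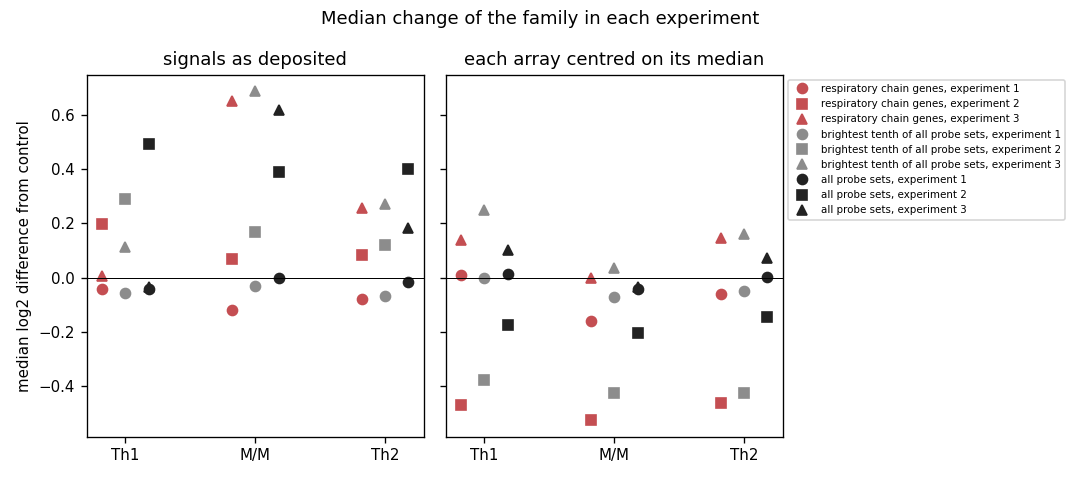
Median log2 difference from the control of the same experiment (vertical axis) for the 54 genes, the brightest 10 percent of probe sets and all probe sets, with experiments 1 to 3 as circles, squares and triangles; the left panel has signals as deposited and the right panel centred arrays. On the left the family's M/M median in experiment 3 is 0.65, and on the right its medians in experiment 2 lie between −0.52 and −0.46.

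Before arrays were centred, few genes of the family kept 1 direction across experiments. With M/M cytokines 10 of 54 genes (18.5 percent) were above control in 3 of 3 experiments and 1 (1.85 percent) was below, against 32.0 and 3.66 percent of all probe sets. For Th1 cytokines these were 4 and 6 genes (7.41 and 11.1 percent), against 14.0 and 5.72 percent, and for Th2 cytokines 9 and 3 genes (16.7 and 5.56 percent), against 25 and 6.46 percent. Of the 100 member probe sets, the unit of the array shares, 12 were above and 6 below control with Th1 cytokines. With M/M cytokines these were 21 and 1, and with Th2 cytokines 15 and 5. The Th1 shares of member probe sets were thus close to those of all probe sets. After centring, 6 genes were below control in 3 of 3 experiments with Th1 cytokines (11.1 percent, against 10.9 percent), 20 with M/M cytokines (37.0 percent, against 23.3 percent) and 10 with Th2 cytokines (18.5 percent, against 15.7 percent). Counted over the 100 member probe sets instead of 1 per gene, these were 8, 28 and 18. The 20 genes with M/M cytokines belonged to all complexes and included Ndufa4, Ndufa8, Ndufa9, Uqcrfs1, Cox6b1, Cox8a, Atp5f1a, Atp5f1b and Atp5f1c.

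Of the 54 genes only Cox4i1 and Ndufab1 were above control in all 3 experiments with all 3 mixtures, and in neither did this hold once arrays were centred. Cox4i1, for the common isoform of cytochrome c oxidase subunit 4, had signals in experiments 1, 2 and 3 of 3687, 3948 and 3486 on the Th1 arrays, 3873, 3963 and 5175 on the M/M arrays, 3660.1, 3729.7 and 4242 on the Th2 arrays and 3607, 3450.0 and 3309 on the control arrays. All M/M and Th2 signals were above all control signals, whereas the Th1 signals overlapped with them. The ratio to control was 1.02 to 1.56, and the M/M group differed by a log2 change of 0.32 (SE 0.15, adjusted p = 0.335, limma), or −0.11 after centring. Ndufab1, the mitochondrial acyl carrier protein that is also a subunit of complex I, had 1666, 1572 and 880.2 (Th1), 1910.2, 1525 and 872 (M/M), 1719.7, 1258 and 821 (Th2) and 1594, 1236 and 615 (control). Its ratios to control were 1.02 to 1.43, and its spread between experiments was larger than the difference between groups. Of the other probe sets of Cox4i1, 1 was below control with Th2 cytokines (log2 −0.17), and the dimmest of Ndufab1 (percentile 38.7) was below control with all 3 mixtures (log2 −0.11, −0.38 and −0.23).

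Complex I, which takes electrons from NADH, was the largest set. Its 27 genes had median log2 changes of 0.08 (Th1), 0.22 (M/M) and 0.14 (Th2), and after centring of −0.08, −0.21 and −0.07. The 7 Ndufs and Ndufv genes, which include iron-sulphur subunits, were above control in 7 of 7 with M/M (median 0.28, and −0.15 centred) and in 6 of 7 with Th1 and with Th2 cytokines. The 9 Ndufb genes of the membrane arm had medians of 0.04, 0.15 and 0.06 (Th1, M/M, Th2), or −0.12, −0.28 and −0.15 after centring.

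Ndufs4, for a subunit near the NADH-binding module whose loss in humans causes Leigh syndrome, had signals of 885, 851 and 430.3 with Th1 cytokines and of 897, 784 and 553 with M/M cytokines. With Th2 cytokines they were 806, 692 and 363, and in control cultures 891, 536 and 244. The arrays of experiment 1 were alike in all groups, and the differences lay in experiments 2 and 3, where the ratio to control was 1.59 and 1.76 (Th1) and 1.46 and 2.27 (M/M). The log2 change was 0.49 for Th1 (SE 0.21, adjusted p = 0.857) and 0.58 for M/M cytokines (SE 0.21, adjusted p = 0.245, limma), or 0.33 and 0.15 after centring. Its groups overlapped, and the control of experiment 1 was as high as the highest treated arrays. Its other probe sets, at percentiles 83.6 and 32.0, had 0.15 and −0.74 with Th1 and 0.51 and 0.14 on treatment with M/M cytokines.

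Ndufa6, for an accessory subunit of the LYR protein family, had a log2 change of 0.46 with M/M cytokines at its brightest probe set (SE 0.20, adjusted p = 0.3) and signals of 713, 441 and 502 there, against 661, 323 and 287 in control cultures. Its other probe set, of medium brightness (percentile 52.4), gave the smallest p of the family. It had signals of 172, 124 and 47.3 with M/M cytokines and 94.5, 34.1 and 24 in control cultures, a log2 change of 1.24 (SE 0.32, adjusted p = 0.125), or 0.81 after centring. Every M/M array was above the control of its experiment, while the groups overlapped across experiments. Both probe sets had the same direction with all 3 mixtures.

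Other complex I genes among the extremes were dim or shared sequence with relatives. Ndufa4l2, a paralogue of Ndufa4 induced by low oxygen in other cells, had 5 probe sets, 4 of them with the manufacturer's suffix for probes shared by a family of sequences, and their M/M changes ran from 0.07 to 1.38. The highest of these was the 1 member that met the methods' criteria, with signals of 24.6, 18.7 and 18.9 with M/M cytokines and 20.1, 4.11 and 5.90 in control cultures (log2 1.38, SE 0.59, adjusted p = 0.284). Its brightest probe set had a log2 change of 0.66 (SE 0.34, adjusted p = 0.353). Ndufs1 had signals of 71.8, 55.5 and 30.7 with M/M cytokines and 95.8, 25.4 and 14.8 in control cultures, a log2 change of 0.59 with an interval of −0.43 to 1.61. Ndufaf3, an assembly factor, had 239.6, 276 and 168 with M/M cytokines and 248, 159.7 and 91.8 in control cultures (log2 0.54, SE 0.26, adjusted p = 0.335).

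The lowest values of complex I were small. Before centring, Ndufb3 was the only gene below control in 3 of 3 experiments with M/M cytokines (log2 −0.11, SE 0.19). Ndufa9, at the junction of the arms of the complex, and Ndufb9 and Ndufb1, of the membrane arm, had log2 changes of −0.18, −0.16 and −0.03 (Th1), −0.09, −0.03 and 0.15 (M/M) and −0.13, −0.26 and −0.36 (Th2). Ndufb1 had signals of 1190.1, 815 and 235 with Th2 cytokines and 1367, 886 and 397 in control cultures, below control in all 3 experiments. Ndufa4, now known as a subunit of complex IV, was below control with Th1 cytokines in all 3 experiments (log2 −0.14, SE 0.17). Ndufb11 and Ndufv3 had 0.26 and 0.41 (Th1), 0.37 and 0.28 (M/M) and 0.34 and 0.19 (Th2). All these intervals included 0.

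Complex III, which passes electrons from ubiquinol to cytochrome c, had 4 genes, all above control with M/M and Th2 cytokines (medians 0.24 and 0.16), and 0 and 2 of them above it after centring (medians −0.18 and −0.05). Cyc1, for cytochrome c1, had signals of 953, 750.1 and 1223 with M/M cytokines and 912, 830.3 and 644 in control cultures (log2 0.28, SE 0.21, adjusted p = 0.516). Its ratio to control was 1.04, 0.903 and 1.90 in the 3 experiments. Uqcrfs1, for the Rieske iron-sulphur protein, and Uqcr11 had log2 changes of 0.21 and 0.33 with M/M cytokines, and Uqcrc2, a core subunit, 0.07. Uqcrfs1 was not lower in experiment 3 than in the other experiments, with 1534 on the Th1, 1783 on the M/M, 1302 on the Th2 and 1226 on the control array.

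Cytochrome c oxidase isoforms were measured by probe sets of different brightness, at percentiles of the control signal of 99.3 (Cox8a), 99.2 (Cox4i1), 98.9 (Cox6a1), 66.3 (Cox4i2), 61.8 (Cox6a2) and 31.1 (Cox8b), which do not give the order of the RNA levels. Cox8a had 3641, 4356 and 3063 (Th1), 3556, 3932 and 4649 (M/M), 3045, 3811 and 3751 (Th2) and 3525, 4045 and 3273 (control), and its log2 changes were 0.02, 0.16 and −0.03 (SE 0.17). Cox6a1 likewise had changes of 0.03, 0.25 and 0.08 (SE 0.17). Their groups overlapped with every mixture. Cox8b had 22.9, 28.5 and 3.20 (Th1), 32.7, 19.5 and 13.6 (M/M), 31.2, 37.6 and 4.90 (Th2) and 16.2, 64.4 and 1.90 (control). Its log2 change of 0.71 with M/M cytokines, the highest among the brightest probe sets of the 54 genes, had an SE of 0.64 and rests on a control signal near the bottom of the scale in experiment 3, and without that experiment it was −0.36.

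Cox6a2 had 51.2, 52.7 and 50.3 with Th1 cytokines and 102.6, 59.5 and 54.4 in control cultures (log2 −0.43, SE 0.30, adjusted p = 0.857), below control in 3 of 3 experiments, and did not overlap with control, with most of the difference from the control of experiment 1. All 3 of its probe sets were below control with Th1 cytokines. The dimmest of them was the 1 member to meet the methods' criteria between mixtures, at signals of 1, 1 and 1.40 (Th1) and 3.67, 1 and 3.40 (M/M). Such signals lie near the bottom of the scale and are too dim to be measured well. Striated muscle markers (5 of 6 measured) had summed signals of 127 to 256 (Th1), 138 to 226 (M/M), 88.2 to 254 (Th2) and 259 to 286 (control), and 0 of them had a mean signal at or under 1. These sums were lower on every treated array than on any control array. Actc1 had the largest difference, with mean signals of 50.8, 27.1 and 31 (Th1, M/M, Th2) against 96.1 in control cultures, where it ran from 23.1 to 177. Each marker taken alone overlapped with control for every mixture, and the part of the markers in the result was not tested. Cox4i2 had 69.2, 80.9 and 101.2 (Th1), 63.4, 88.8 and 137 (M/M), 71.1, 87.2 and 116 (Th2) and 72.8, 64.2 and 151 (control), without a common direction.

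**Figure D3:**
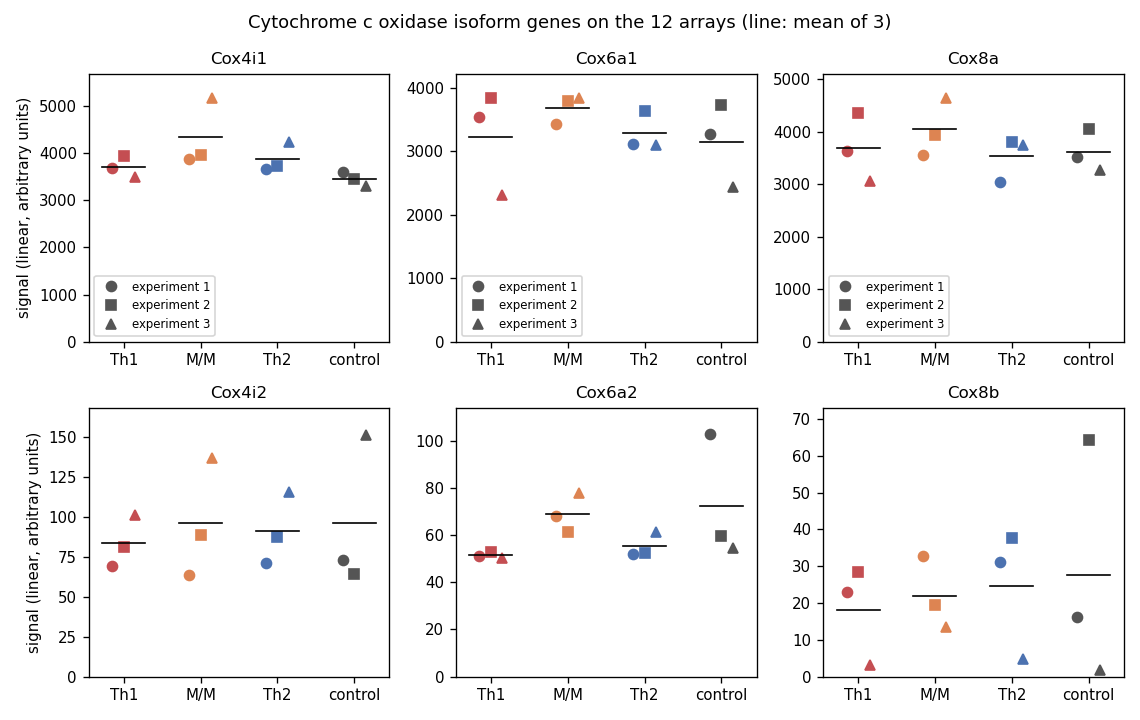
Signals of cytochrome c oxidase isoform genes on each array (vertical axis, linear from 0, a scale of its own in each panel) by group, with experiments as symbols and the mean of 3 as a line; common isoforms are in the upper row. The M/M and Th2 arrays of Cox4i1 lie above its control arrays and the Th1 arrays of Cox6a2 below theirs, and in the other panels every mixture overlaps with control.

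The other complex IV genes stayed within the same range. The 13 genes had median changes of 0.02 (Th1), 0.16 (M/M) and 0.01 (Th2), and of −0.14, −0.27 and −0.20 after centring. Cox5a, for a nuclear accessory subunit, had the lowest Th2 change among the brightest probe sets of the 54 genes, with signals of 86.5, 85.4 and 13.8 with Th2 cytokines and 109.9, 57.5 and 40.7 in control cultures (log2 −0.44, SE 0.38). It was below control in experiments 1 and 3 and above it in experiment 2, and without experiment 3 the change was 0.11. A brighter probe set for Cox5a carried a further symbol and was left out. Cox7a2l, a supercomplex factor, had log2 changes of −0.08, −0.04 and −0.11, and Cox6c-ps1 had −0.77 with Th1 cytokines (SE 0.60) at signals of 1.90 to 9.83 there, too dim to be measured well.

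In the ATP synthase, genes for the peripheral stalk and genes for the F1 sector had different values with M/M cytokines. This split was noticed in the data and has no test. The 4 peripheral stalk genes had a median log2 change of 0.54 and the 5 F1 genes (Atp5f1a to Atp5f1e) one of 0.01, and after centring 0.11 and −0.42. With Th1 cytokines the medians were 0.22 and 0.05 (0.06 and −0.11 after centring), and with Th2 cytokines 0.30 and −0.06 (0.08 and −0.27 after centring). The exception in the stalk was Atp5po (OSCP), with −0.14 for M/M cytokines.

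Atp5pb, for subunit b of the stalk, had signals of 1503, 1055 and 1153 with M/M cytokines and 1277, 571 and 606 in control cultures, above control in 3 of 3 experiments (log2 0.68, SE 0.25, adjusted p = 0.234). Atp5pd and Atp5pf, for subunits d and F6, had log2 changes of 0.59 (SE 0.25, adjusted p = 0.28) and 0.49 (SE 0.22, adjusted p = 0.3). In experiment 1 their M/M signals were 1215 and 1118, against 1248 and 1182 in the control culture, so that their differences came from experiments 2 and 3. Without experiment 3 the changes of the 3 genes were 0.56, 0.31 and 0.29.

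Atp5f1b had 2872, 2948 and 2618 with M/M cytokines and 3337, 4001 and 2033 in control cultures (log2 −0.10, SE 0.17, adjusted p = 0.79). Atp5f1c, for the γ subunit of the rotor, had 1354, 1410.0 and 908 with M/M cytokines and 1605, 2048 and 830.2 in control cultures, the lowest M/M change among the brightest probe sets of the 54 genes (log2 −0.22, SE 0.17, adjusted p = 0.541). Both were below control in experiments 1 and 2 and above it in experiment 3. The control of experiment 2 was the highest control for 4 of the 5 F1 genes and the lowest for Atp5pb. In that experiment the F1 median was −0.44 and the stalk median 0.66, whereas in experiment 1 they were −0.25 and −0.06 and in experiment 3 they were 0.57 and 0.91. Atp5if1, the inhibitor of ATP hydrolysis, had −0.09 at its brightest probe set, and its 4 probe sets ran from −0.09 to 0.80.

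**Figure D4:**
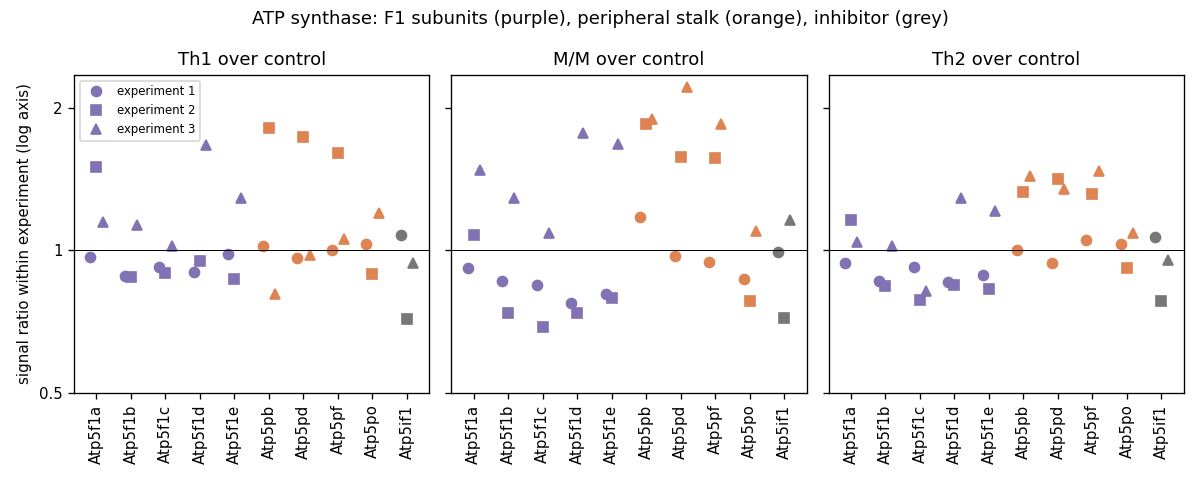
Signal ratio to the control of the same experiment (vertical axis, log scale) for each ATP synthase gene and mixture, with experiments as symbols; F1 genes are purple, peripheral stalk genes orange and the inhibitor grey. With M/M cytokines Atp5pb, Atp5pd and Atp5pf reach ratios of 1.57 to 2.22 in experiments 2 and 3, and Atp5f1b and Atp5f1c have 0.737 and 0.688 in experiment 2.

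Probe sets of 1 gene often differed. Of the 28 genes with several probe sets, the sign of the change differed between them in 14 (Th1), 12 (M/M) and 16 (Th2). The highest and the lowest change among the 100 probe sets came from probe sets below the array median with every mixture.

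**Figure D5:**
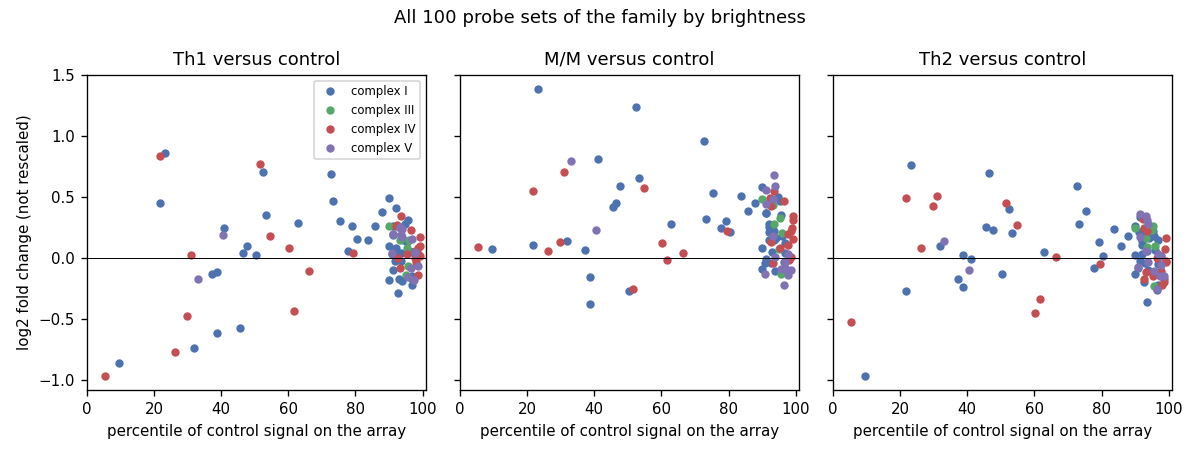
Log2 fold change against control (vertical axis, not rescaled) of all 100 probe sets of the family against the percentile of their control signal (horizontal axis), coloured by complex, for the 3 mixtures. Probe sets in the top 10 percent spread less than dimmer ones, and the highest M/M value, 1.38, is from a dim Ndufa4l2 probe set.

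Between the mixtures no member was called, nor any other probe set (0 percent called in each of the 3 pairs). At an unadjusted p under 0.05 there were 1, 0 and 2 of 100 member probe sets, against 2.89, 1.85 and 3.92 percent of all probe sets. The median log2 difference over the 54 genes was −0.13 for Th1 minus M/M (9 genes higher with Th1), −0.02 for Th1 minus Th2 (25 higher) and 0.13 for M/M minus Th2 (49 higher), against −0.21, −0.05 and 0.13 over all probe sets. After centring these medians were 0.13, 0.04 and −0.09. Among the brightest probe sets of the 54 genes Atp5pb had the smallest p for Th1 against M/M cytokines, with signals of 1302, 1037 and 489 on the Th1 arrays and 1503, 1055 and 1153 on the M/M arrays (log2 −0.49, SE 0.25, adjusted p = 0.903). Ndufb1 had the smallest for M/M against Th2 cytokines (log2 0.51, SE 0.25, adjusted p = 0.998).

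Of 60 other listed genes of oxidative phosphorylation 20 were measured and none was called, with median log2 changes of 0.10 (Th1), 0.33 (M/M) and 0.10 (Th2), or −0.06, −0.09 and −0.11 after centring. The family itself had 0.18 with M/M cytokines, or −0.24 after centring, and the difference has no test. Of the mitochondrially encoded subunits, COX3 had 4829.5, 4815 and 3401 (Th1), 5668, 5176 and 4836 (M/M), 4205, 3951 and 4034 (Th2) and 4626, 3937 and 2875 (control). The M/M change was 0.48 (SE 0.16, adjusted p = 0.203), above control in 3 of 3 experiments, and 0.05 after centring. COX1 had 0.18 and COX2 0.57 with M/M cytokines, or −0.24 and 0.14 after centring. Among carriers and porins, the highest M/M changes were those of Vdac1, 0.88 (adjusted p = 0.226, limma), and Slc25a5, for an adenine nucleotide translocase, 0.45 (adjusted p = 0.375, limma). After centring these were 0.45 and 0.02, and without experiment 3 Vdac1 had 0.44 (uncentred). The other carriers were lower: Slc25a4 had 0.31 and Slc25a3 0.12, or −0.12 and −0.30 after centring. The uncoupling proteins Ucp1, Ucp2 and Ucp3 had 0.37, 0.14 and −0.57. Sdha, of complex II, had 0.23 (adjusted p = 0.604), or −0.20 after centring.

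Markers of cell types, among them neurons and endothelial cells, of which the study found none by immunofluorescence, were summed on each array. These sums include an unknown background and do not by themselves show that a cell type was present. Summed signals of astrocyte markers (6 of 7 measured) were 2055 to 2805 (Th1), 1599 to 3632 (M/M), 1618 to 3338 (Th2) and 1123 to 3420 (control). Oligodendrocyte markers (6 of 7) had 7755 to 16140 with M/M cytokines and 4422 to 15000 in control cultures. Those of their precursors (2 of 3) had 286 to 814 and 392 to 625. Microglial markers (6 of 7) had 3450 to 6798 (Th1), 5439 to 7550 (M/M), 3575 to 5141 (Th2) and 2188 to 4907 (control). Of these 6, Cd14, for a co-receptor of bacterial lipopolysaccharide, was called with M/M cytokines (log2 2.55, adjusted p = 0.0486, limma). After centring Cd14 had 2.12 and was not called (adjusted p = 0.192, limma). Without it, a choice made after its value was seen, the sums were 2712 to 4076 (Th1), 2705 to 4117 (M/M), 2650 to 4200 (Th2) and 1822 to 4134 (control), and the groups overlapped. Neuronal markers (6 of 7) summed to 556 to 672 with M/M cytokines and 428 to 587 in control cultures, and fibroblast markers (4 of 4) to 998 to 2771 and 546 to 3300. Endothelial markers (3 of 5) summed to 39.1 to 83.7 with M/M cytokines and 24.2 to 131.6 in control cultures. No measured marker in these lists had a mean signal at or under 1. In mixed cultures fewer cells of a type and less RNA per cell cannot be told apart, and the part of the markers in the results was not tested.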

How the data were processed

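Expression was measured in 12 cultures on Affymetrix rat genome arrays. The deposited values are intensity signals on a linear scale, which the authors calculated with dChip for each probe set. Its settings and any scaling between arrays are not given in the sources used here. Values of experiments 1 and 2 have 2 decimals and those of experiment 3 have 1. After 59 control probe sets were left out of 8799, signals were floored at 0.1, turned to log2 and not rescaled. Gene symbols came from the array annotation (7006 probe sets with 1 symbol, 308 with several and 1426 with none), and the 7 probe sets that share a family symbol with another gene were left out of the family.

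Groups were compared by limma (version 3.58.1, R 4.3.3) over all 8740 probe sets and all arrays, with a variance trend, experiment as a replicate block and Benjamini-Hochberg adjustment (6 residual and 6.94 prior degrees of freedom). The block rests on the title code shared by the 4 cultures of an experiment. Deviations from group means correlated at 0.439 to 0.708 within an experiment (18 pairs across all probe sets) and at most at 0.357 between experiments. Over the member probe sets alone these ranges overlapped, with 0.304 to 0.795 within an experiment and up to 0.595 between experiments. Lists are described by counts and medians, with no test. The family, its lists and its motifs were chosen with earlier results of these data known. Genes were named by a rule that took the 4 highest and 4 lowest changes per mixture, the 4 brightest and 4 dimmest genes, genes of 1 direction in all experiments and mixtures, the isoform sets, and genes whose probe sets disagree in sign. Further genes named for their role were chosen after their values were seen. The fit was tested on simulated data. Columns of no sample of this series numbered 0. The result of 1 further motif is not reported here.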

Additional observations from a re-analysis of the deposited data

How the results depend on the processing

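No member probe set was called in any comparison under any limma alternative: arrays centred on the median or on the median of the brightest 25 percent of probe sets, quantile normalization, no replicate block (0 members, and 0 of all probe sets with any mixture), a random replicate block, a floor of 1, an offset of 16, no variance trend, a filter on dim probe sets, 2 groups in the fit, or each experiment or array left out. With arrays centred on the median no probe set of the array was called in any comparison, so that the lack of calls there is not particular to the family. The criteria of the methods passed 1 member for M/M against control, where 6.82 percent of all probe sets passed, and 1 for Th1 against M/M cytokines. The latter was a Cox6a2 probe set with signals near the bottom of the scale, and its pass is no result about the family. The family's median log2 change against control depended on the scaling: centred on the array median it was −0.10 (Th1), −0.24 (M/M) and −0.14 (Th2), against 0.06, 0.18 and 0.07 without rescaling, and centred on the brightest 25 percent it was −0.12 (Th1), −0.18 (M/M) and −0.10 (Th2). Quantile normalization gave −0.07, −0.14 and −0.04. Leaving out 1 experiment or array moved it between −0.03 and 0.16 (Th1), −0.01 and 0.32 (M/M) and −0.01 and 0.16 (Th2). Of 1593 alternative values of the named genes 63 moved by more than the spread between experiments and 183 changed sign, 28 of them on centring. The 1593 include settings that cannot alter a log2 change in this balanced design. These are no block or a random block, no variance trend, 2 groups in the fit and the dim filter. The counts therefore make the values look steadier than the other settings show. The cause of the moves was not tested.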

Other observations

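Regulators of respiratory genes gave wider values than the family, with 12 of 24 listed genes measured and none called. They were dimmer, with a median percentile of the control signal of 66.1 (lowest 9.31) against 93.5 for the family, and the part of brightness in this was not tested. Their median log2 change was 0.30 (Th1), 0.62 (M/M) and 0.34 (Th2), or 0.14, 0.20 and 0.13 after centring. Nfe2l2, for a factor of the oxidative stress response, had signals of 867, 472 and 416 with M/M cytokines and 384, 75.1 and 86.1 in control cultures (log2 2.04, SE 0.46, adjusted p = 0.0941, limma), above control in 3 of 3 experiments and 1.61 after centring. Hif1a, for a factor induced by low oxygen, had 226, 194 and 256 with M/M cytokines and 173, 77.5 and 80.9 in control cultures (log2 1.12, SE 0.34, adjusted p = 0.18), or 0.70 after centring. Both were also above control in 3 of 3 experiments with Th1 and Th2 cytokines, and neither passed the test. These were the 2 highest M/M changes of the list, in which 9 of 12 genes were above control. Esrra and Thra had −0.06 and 0.03 with M/M cytokines, and Sp1 and Pparg −0.04 and −0.49.

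Of the 7 probe sets that carry a family symbol beside another, 6 had log2 changes between −0.21 and 0.11 for every mixture, and after centring their M/M changes lay between −0.46 and −0.32. Among them were those for subunit c of ATP synthase (Atp5mc1 and Atp5mc2) and the brightest for Cox5a. The probe set for cytochrome c, which shares its symbol with a pseudogene and a related gene, had 0.56 (Th1), 0.62 (M/M, adjusted p = 0.288) and 0.03 (Th2), or 0.40, 0.20 and −0.18 after centring.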
